A study of Mus musculus with 2 samples.

Results

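The 4 mature miRNAs of the Mir205 and Mir203 hairpins, chosen by name, were followed in RNA recovered from mouse keratinocytes. They are mmu-miR-205-5p, mmu-miR-205-3p, mmu-miR-203-3p and mmu-miR-203-5p (written below without the prefix, which stands for mouse), 4 of the 1477 miRNA names counted in either library. The series comprised 2 libraries of 1 group, labelled as replicates 1 and 2. In that group cultured keratinocytes from mouse skin, grown in low calcium medium, carried an exogenous fusion of desmoplakin and the biotin ligase BirA and received biotin. Desmoplakin is a plaque protein of desmosomes, the junctions that hold epithelial cells together. A BirA fusion of this kind serves to attach biotin to proteins near it. Biotin-labelled proteins were captured on streptavidin beads with the RNA they held, and the question behind the capture was what Argonautes, the proteins that carry miRNAs, do at the desmosomal plaque. No animal age, strain or promoter of the transgene is given in the sources used here. No second condition was analysed here, so every value below describes recovered RNA and not a change or an enrichment.

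As background, a miRNA hairpin is cut into a 5p and a 3p arm, one of which is usually kept by an Argonaute and guides it to RNAs that pair with its seed. In skin, miR-205 is known from basal progenitor cells, where it represses inhibitors of PI3K signalling and is needed for their growth. miR-203 is known from the suprabasal layers, where it rises as keratinocytes differentiate and represses p63, the transcription factor of epidermal progenitors. Low calcium medium is the usual way to keep cultured keratinocytes proliferating, and a rise in calcium triggers differentiation and desmosome assembly. The labels mention no such rise.

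The 4 members are shown with their seeds because their identity as guides rests on these bases. The sequences are RefSeq's, on GRCm38.p6, written 5′ to 3′ with the seed (bases 2 to 8) in capitals.
miR-205-5p: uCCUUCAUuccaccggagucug
miR-205-3p: gAUUUCAGuggagugaagcuca
miR-203-3p: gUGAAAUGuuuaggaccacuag
miR-203-5p: aGUGGUUCuugacaguucaaca
All 4 are 22 bases long, and no 2 of them share a seed. None of the other mature mouse miRNAs in the RefSeq table, which holds 1679 in all, had the seed of a member, nor its bases 2 to 7. Summing the counts over each seed therefore left the members' counts as they were. The table matched 1231 of the 1477 names (83.3%), so seed sharers among the other names were not examined.

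Mir205 lies at chr1:193507463-193507530 on the minus strand, inside the span of the long noncoding RNA gene Mir205hg (chr1:193506460-193510210). Mir203 lies at chr12:112130880-112130955 on the plus strand, between the protein-coding genes Aspg and Kif26a, 3307 bases after the first and 13019 bases before the second. The hairpins are shown with both arms in capitals, to place the counted arms.
Mir205: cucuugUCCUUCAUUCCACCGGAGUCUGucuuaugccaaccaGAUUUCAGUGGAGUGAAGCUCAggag
Mir203: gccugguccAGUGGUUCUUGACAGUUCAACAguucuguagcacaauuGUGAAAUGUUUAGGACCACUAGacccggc
A second miRNA gene, Mir203b (Gm51289 in the table), is annotated on the opposite strand of Mir203, at chr12:112130887-112130946. Its arms lie antisense to the arms above and are shown because the same number names them.
miR-203b-5p: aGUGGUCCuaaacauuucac
miR-203b-3p: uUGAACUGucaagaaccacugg
All 20 bases of miR-203b-5p are the reverse complement of a stretch of miR-203-3p, and its first 6 bases are also those of miR-203-5p. Neither table lists a miR-203a or miR-203b name. The miRNA reference used for counting is not given in the sources used here, so whether these names could have been counted is unknown and their absence is not a measured 0. For a name that could be counted, counting error alone lets 3 counts go unseen, which is 0.794 CPM in replicate 1 and 0.728 CPM in replicate 2.

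The libraries held 3776893 and 4122955 miRNA counts. CPM, used throughout for levels, is counts per 1000000 of these. The libraries differed by more than counting error, with a chi-square of 60.6 per degree of freedom, so they were treated as separate libraries. This value sums over names, and miR-5099, with 57754 and 151461 counts, makes up a large part of it. The labels do not say whether the libraries came from separate cultures, and their spread may thus be technical. The intervals below cover counting error only and take each count as independent. Whether PCR copies were removed is not given in the sources used here.

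The guide arm of miR-205 was among the most abundant miRNAs recovered. miR-205-5p had 127055 counts in replicate 1, or 33640 CPM (Wilson 95% interval 33459 to 33822), and 133359 counts in replicate 2, or 32346 CPM (32175 to 32517). It ranked 5 and 6 in the libraries and took 3.30% ± 0.0915 of all miRNA counts (SD, n = 2). The libraries lay close together, with the lower CPM in the one with more counts.

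The guide arm of miR-203 stood lower in the same libraries. miR-203-3p had 16417 counts in replicate 1, or 4347 CPM (4281 to 4414), and 18470 in replicate 2, or 4480 CPM (4416 to 4545). It ranked 42 and 41 and took 0.441% ± 0.00941 of the counts (SD, n = 2). Both guide arms were far above the median of all names, 4.99 CPM: 99.7% of names had a lower mean than miR-205-5p and 97.1% a lower mean than miR-203-3p.

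The opposite arms were recovered at far lower levels. miR-203-5p had 716 counts, or 189.6 CPM (176 to 204), in replicate 1 and 421 counts, or 102 CPM (92.8 to 112), in replicate 2. miR-205-3p had 38 counts, or 10.1 CPM (7.33 to 13.8), in replicate 1 and 81 counts, or 19.6 CPM (15.8 to 24.4), in replicate 2. The opposite arm of the less abundant hairpin was thus the more abundant of the pair in both libraries, by 18.8 times in replicate 1 and 5.20 times in replicate 2. The order miR-205-5p, miR-203-3p, miR-203-5p, miR-205-3p was the same in both libraries, and the ranges of these 4 names did not overlap.

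**Figure D1:**
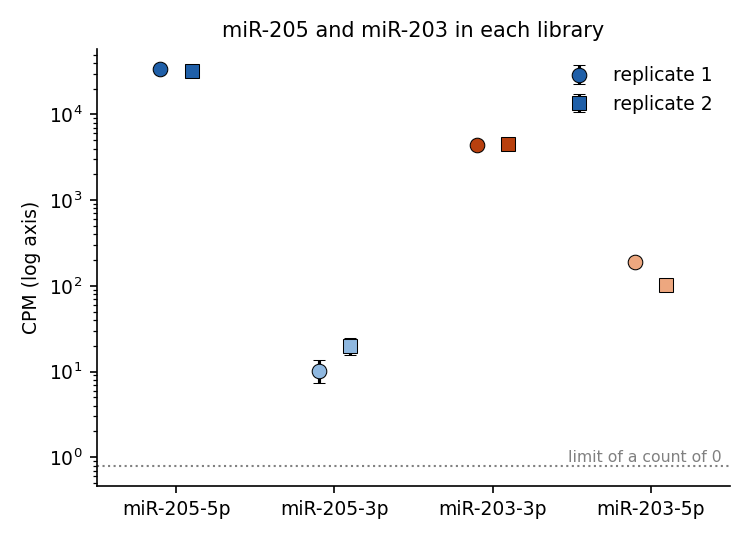
CPM (log axis) of the 4 members in replicate 1 (circles) and replicate 2 (squares), with Wilson 95% intervals of counting error as bars. Both guide arms, miR-205-5p and miR-203-3p, are nearly level between the libraries, while miR-205-3p is higher in replicate 2 and miR-203-5p is higher in replicate 1; the dotted line marks 0.794 CPM, the higher of the limits that a count of 0 allows.

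The ratio of miR-205-5p to miR-203-3p counts was 7.74 in replicate 1 and 7.22 in replicate 2, or 7.48 ± 0.367 (SD, n = 2). The ratio lay above 1 by far more than this spread. An exact test by flipping signs, whose smallest p with 2 libraries is 0.5, was not run. With both arms of each hairpin summed, the ratio was 7.24 ± 0.251. It is a ratio of reads, and each miRNA can be ligated and amplified with its own efficiency. In such bulk samples, fewer cells of a type and less of its RNA per cell cannot be told apart, so the ratio does not count basal against differentiating cells.

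The neighbours in the order of levels show how finely the libraries place each member. The name just above miR-205-5p was miR-141-3p, an epithelial miRNA of the miR-200 family, with 37372 ± 1568 CPM, and the one just below was miR-21a-5p, a widely expressed miRNA, with 31269 ± 254 CPM (SD, n = 2). The difference miR-21a-5p minus miR-205-5p was -2191 CPM in replicate 1 and -1256 CPM in replicate 2, and that of miR-141-3p minus miR-205-5p was 2623 and 6135 CPM. Both differences kept their sign and exceeded their SD. These neighbours were taken from mean levels: in replicate 2, miR-5099, with 57754 and 151461 counts in the libraries, also lay between miR-141-3p and miR-205-5p, which put miR-205-5p at rank 6 there.

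miR-203-3p was not separated from its neighbours in this way. miR-106b-5p, just above it, was higher by 222 CPM in replicate 1, while the difference miR-106b-5p minus miR-203-3p was -31.5 CPM in replicate 2. miR-222-3p, just below it, differed from miR-203-3p by -304 CPM and -16.0 CPM, a mean of -159.8 CPM against an SD of 203.4. Both neighbours of miR-203-5p, and the upper neighbour of miR-205-3p, changed sides between the libraries. miR-682 and miR-669c-5p, on either side of miR-203-5p, were each lower than it in replicate 1 and higher in replicate 2. miR-1224-5p, just above miR-205-3p, was higher in replicate 1 and lower in replicate 2. miR-7084-3p, just below it, had 37 and 80 counts, 1 fewer than miR-205-3p in each library. That difference kept its sign and exceeded its SD, but 1 count is well within counting error.

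**Figure D2:**
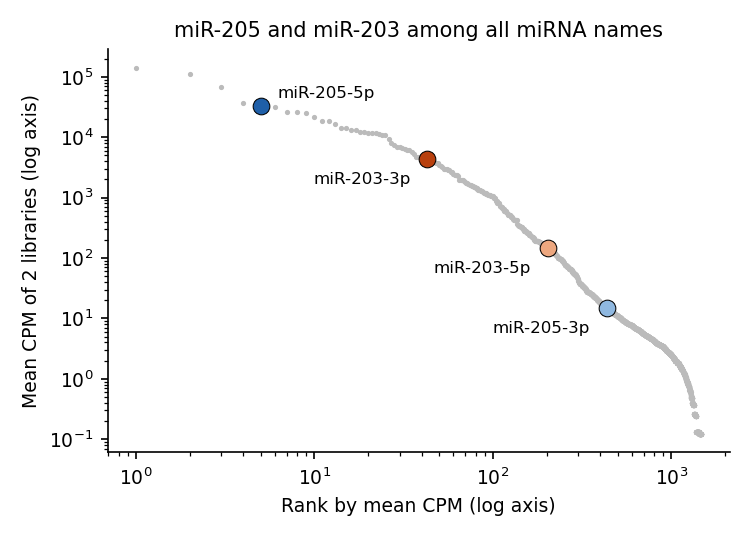
Mean CPM over the 2 libraries (log axis) against rank (log axis) for all 1477 miRNA names in grey, with the 4 members in colour. miR-205-5p is at rank 5, miR-203-3p at 43 and miR-205-3p at 436, with miR-203-5p between the last pair.

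The names nearest to each member over the 2 libraries were found by the distance in log2 CPM, among the 986 names counted in both. miR-21a-5p (distance 0.11) and miR-141-3p (0.27) were nearest to miR-205-5p. miR-106b-5p (0.072) and miR-15b-5p (0.082) were nearest to miR-203-3p. miR-7084-3p (0.042) and miR-221-5p (0.080) were nearest to miR-205-3p, and miR-138-5p (0.31) and miR-195a-5p (0.34) to miR-203-5p. With 2 libraries this distance is mainly one of level.

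The libraries were compared name by name with an exact two-sided binomial test on reads, adjusted by Benjamini-Hochberg over the 1002 names that averaged 10 counts or more. All 4 members passed an adjusted p of 0.05, as did 70.6% of all names tested, so passing sets no member apart. miR-205-3p and miR-203-3p were higher in replicate 2, a direction called for 36.2% of names, and miR-205-5p and miR-203-5p were lower, called for 34.3%. The test compares 2 libraries and not conditions.

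The sizes of these differences separated guide arms from opposite arms. For miR-205-5p the log2 ratio, taken as replicate 2 over replicate 1, stood at -0.057 (exact 95% interval -0.068 to -0.046; adjusted p = 2.71e-22, exact binomial test). For miR-203-3p it was 0.044 (0.013 to 0.074; adjusted p = 0.00789, exact binomial test). These are 1.04-fold and 1.03-fold differences. For miR-205-3p the log2 ratio was 0.97 (0.39 to 1.56; adjusted p = 0.00112, exact binomial test), and for miR-203-5p it was -0.89 (-1.07 to -0.72; adjusted p = 2.20e-23, exact binomial test), or 1.95-fold and 1.86-fold. The opposite arms of the 2 hairpins thus moved in opposite directions between the libraries, while their guide arms stayed within 1.04-fold. All these ratios rest on library totals, which include miR-5099 with 57754 and 151461 counts. A total without miR-5099 was not tried. Under DESeq2 size factors the log2 ratios of miR-205-5p and miR-203-3p were -0.042 and 0.058, and under TMM factors -0.058 and 0.043.

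Set against names with a mean count within 1.5 times their own, the members differed in how usual their ratios were. Of the 152 names near miR-205-3p in count, 73 (48.0%) had a log2 ratio at least as large in size, and their median size was 0.95. Of the 24 names near miR-203-3p, 15 did, and of the 5 near miR-205-5p, 3 did: miR-141-3p, miR-23a-3p and miR-5099. Of the 70 names near miR-203-5p, 5 (7.14%) had a ratio as large or larger, where the median size was 0.28. These were miR-20a-3p, miR-99a-5p and miR-466d-3p, which were lower in replicate 2, and miR-3089-3p and miR-3472, which were higher. They are named here after their values were seen. The ratios of miR-205-5p, miR-205-3p and miR-203-3p thus lay near the middle of those at their abundance, and that of miR-203-5p toward the edge.

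**Figure D3:**
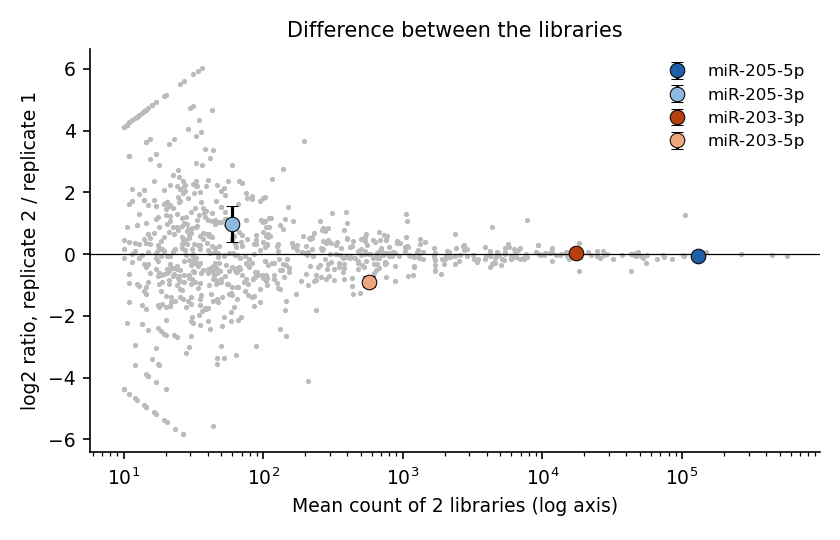
log2 ratio of replicate 2 over replicate 1 against the mean count of the 2 libraries (log axis), for tested names in grey and the 4 members in colour with exact 95% intervals as bars. Names with 0 counts in 1 library (149 of 1002) have no finite ratio and are left out; miR-203-5p lies at -0.89 where most names of like count lie nearer to 0, and miR-205-3p at 0.97 inside a wide scatter.

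The arms of each hairpin were then compared within each library. In replicate 1 the 5p arm held 99.97% of the miR-205 counts, with a Wilson 95% interval of 99.96% to 99.98%, and in replicate 2 it held 99.94% (99.92% to 99.95%). The 3p arm held 95.8% of the miR-203 counts in replicate 1 (95.5% to 96.1%) and 97.8% in replicate 2 (97.6% to 98.0%). The hairpins thus kept opposite arms, and each kept the same arm in both libraries. Both passed the exact binomial test of 5p against 3p counts at an adjusted p of 0.05 in each library, as did 91.5% of the 164 hairpins that had names for both arms and reached 100 counts in every library.

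Among these 164 hairpins, of which 105 had more 5p and 59 more 3p counts, miR-205 was one of the most one-sided and miR-203 was near the middle. miR-205 ranked 10 by the mean share of its main arm, 99.95% ± 0.0218 (SD, n = 2), and miR-203 ranked 66 with 96.8% ± 1.38. The median hairpin had 94.6%. The main arm outnumbered the other 3344-fold in replicate 1 and 1646-fold in replicate 2 for miR-205, and 22.9-fold and 43.9-fold for miR-203.

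The share of the lesser arm moved in both hairpins. In replicate 1 miR-205-3p made up 0.0299% of miR-205 counts, with a Wilson 95% interval of 0.0218% to 0.0410%, against 0.0607% in replicate 2 (0.0488% to 0.0754%). miR-203-5p made up 4.18% of miR-203 counts in replicate 1 (3.89% to 4.49%) and 2.23% in replicate 2 (2.03% to 2.45%). These intervals do not overlap within either hairpin, and the change was 2.03-fold up for miR-205 and 1.88-fold down for miR-203 from replicate 1 to 2. Of 30 other hairpins whose lesser arm had a count within 1.5 times that of miR-205-3p, 15 changed at least as much. Of 17 such hairpins for miR-203-5p, 1 did: miR-20a, whose main arm held 97.0% in replicate 1 and 98.4% in replicate 2.

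**Figure D4:**
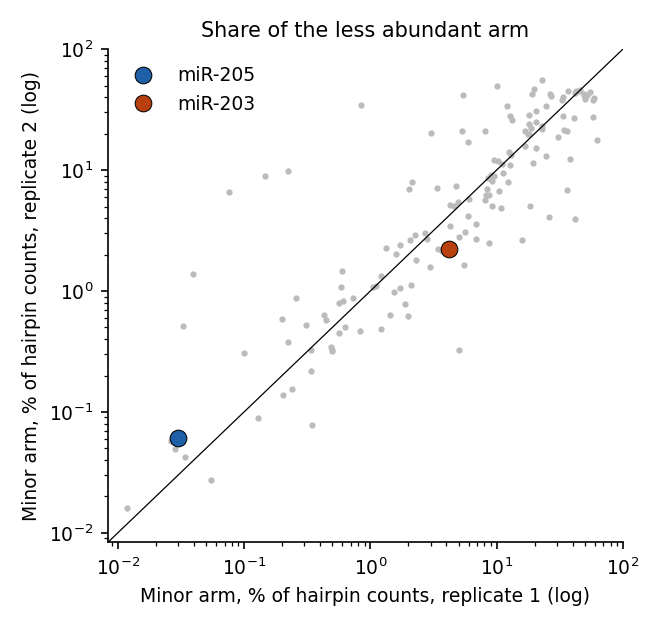
Share of the less abundant arm in the counts of its hairpin, in percent, in replicate 1 against replicate 2 (log axes), for hairpins in grey and miR-205 and miR-203 in colour, with the line of equal shares. Hairpins whose lesser arm had 0 counts in 1 library (14 of 164) are left out; miR-205 lies at 0.0299% and 0.0607%, above the line, and miR-203 at 4.18% and 2.23%, below it.

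The sequences shown above give some features of the kept arms. miR-205-5p begins with U, as did the main arm of 60 of the 109 hairpins that could be read from RefSeq (55.0%) and the lesser arm of 16 (14.7%). miR-203-3p begins with G, as did the main arm of 13 of them (11.9%), and miR-203-5p with A. In the predicted fold of each hairpin, 19 of the 22 bases of every arm were paired. The first 4 bases of each arm held 1 G-C pair in Mir205 and 2 in Mir203, the same number at both arms. Of the 109 hairpins, 40 (36.7%) had such a tie, and in 49 the main arm had fewer such pairs than the other. In Mir205, 2 of the first 4 bases of the 5p arm were paired, against 4 of the 3p arm, and in Mir203 all 4 were paired in both arms. How many of the 109 hairpins have such a difference in paired bases was not counted. The features given here are descriptions of the sequences and were not tested against the arm counts.

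Other miRNAs studied in epidermis place the pair in this profile. Of 2 names tied to skin progenitors, miR-205-5p was the more abundant: miR-125b-5p, known to hold back differentiation of skin stem cells, had 1740 ± 132 CPM (SD, n = 2), so that miR-205-5p had 18.3 and 19.7 times its counts in the libraries. Of 5 names tied to keratinocyte differentiation, miR-24-3p was the highest with 12207 ± 348 CPM, above miR-203-3p. miR-30a-5p had 2893 ± 86.1 CPM and miR-34a-5p, which p63 represses, had 1156 ± 61.1 CPM, both below miR-203-3p. miR-184-3p had 1 count in replicate 1 and 2 in replicate 2, under the limit that a count of 0 allows. The other arm of its hairpin, miR-184-5p, is not in the list and had 53 and 29 counts. The differentiation list took 2.07% ± 0.0467 of the counts and the progenitor list 3.47% ± 0.105 (SD, n = 2), nearly all of the latter miR-205-5p. Median levels were 2893 CPM in the first list and 17366 CPM in the second, against 4.99 CPM over all names. The second median is only the midpoint of 2 distant names, miR-205-5p at 32993 CPM and miR-125b-5p at 1740 CPM. miR-125b-5p alone was below miR-24-3p, miR-203-3p and miR-30a-5p, and above miR-34a-5p and miR-184-3p. The lists therefore do not rank progenitor against differentiation names apart from miR-205-5p. The libraries differed in the exact binomial test for 4 of the 5 and 2 of the 2, beside 70.6% of all names; miR-184-3p was too low to be tested.

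Among 8 further epithelial or keratinocyte names, all counted in both libraries, only miR-31-5p and miR-141-3p were above miR-205-5p. miR-31-5p, which is induced in proliferating keratinocytes, had 142121 ± 3663 CPM, and miR-205-5p had 0.232 times its counts in each library. miR-203-3p lay between miR-200c-3p (6608 ± 363 CPM) and miR-200a-3p (3709 ± 108 CPM), members of a family that keeps epithelial cells from turning mesenchymal. miR-210-3p, a hypoxia-induced miRNA, had 2621 ± 42.8 CPM.

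The labelled epithelial cell type was checked against marker miRNAs. The 7 epithelial markers, which include miR-205-5p and miR-203-3p, were all counted in both libraries and summed to 105854 and 106177 CPM. The 2 arms of miR-126a, markers of endothelium, summed to 516 and 426 CPM, more than miR-203-5p had, and the 3 neural markers to 164 and 153 CPM. The 5 mesenchymal markers summed to 24.9 and 101 CPM, the 3 muscle markers to 34.7 and 20.4 CPM, the 6 blood markers to 6.09 and 17.7 CPM and the liver marker miR-122-5p to 4.50 and 8.49 CPM. The melanocyte marker miR-211-5p had 0 counts in replicate 1 and 5 in replicate 2. miR-1a-3p, miR-199a-5p, miR-142-5p, miR-144-3p and miR-451a were at 0 in replicate 1, and miR-124-3p, miR-133a-3p, miR-143-3p and miR-142-3p in replicate 2. The mesenchymal, blood and liver sums were higher in replicate 2, and the endothelial, neural and muscle sums were lower there. Within the neural, muscle and blood lists the markers went both ways. Against their sums, miR-128-3p (neural) had 50.3 and 51.2 CPM, miR-1a-3p (muscle) 0 and 6 counts, and miR-142-3p (blood) 15 and 0 counts. No neural or liver marker passed the exact binomial test between the libraries. The mesenchymal rise lay mostly in miR-214-3p, with 6.88 and 88.3 CPM, while miR-199a-3p, miR-143-3p and miR-145a-5p were lower in replicate 2. The other arm of its hairpin, miR-214-5p, is not a listed marker and was lower in replicate 2, with 57 and 35 counts. The part of the listed markers in the differences of the members was not tested.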

How the data were processed

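The authors deposited 1 table of raw counts per library, with mature miRNA names and whole-number counts from 1 up. cutadapt, Novoalign and mm10 are named in the submitters' processing notes, without roles or versions. The miRNA reference, the treatment of PCR copies, of reads matching several miRNAs and of miRNA-target chimeras is not given in the sources used here. Counts of chimeric and unjoined miRNA reads may therefore be mixed, and target sites were not analysed here.

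Names absent from one table were set to 0. Rows named Cali are no miRNA names and stayed out of totals: they held 0.00265% and 0.000218% of the counts. CPM used library totals. Names were compared between libraries, and arms within libraries, by exact two-sided binomial tests (scipy 1.17.1) with Benjamini-Hochberg adjustment at 0.05. On Poisson counts simulated for the comparison of the libraries (1002 names, 200 changed 2-fold), the test called 64.5% of the changed names. Of its calls there, 3.73% were false. The simulated libraries differed by counting error only apart from the changed names, unlike the real ones (chi-square of 60.6 per degree of freedom). These rates therefore do not carry over to the real comparison. TMM factors (edgeR 4.0.16) and DESeq2 1.42.0 size factors were alternatives. Hairpins were folded with RNAfold 2.7.2. Python 3.11.15, R 4.3.3 and matplotlib 3.10.9 were used. mm10 and GRCm38 name the same build. The rule named the members, seed sharers, the epidermal list members, and the nearest names and neighbours of each member. Members and lists were chosen with earlier results of these data known.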

Additional observations from a re-analysis of the deposited data

Results flagged for a closer look

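The tables also list Cali_12, which is no miRNA name and was used in no comparison. Its counts were 99 in replicate 1 and 9 in replicate 2, more than the 3 that counting error can hide.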

How the results depend on the processing

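The levels of the 4 members moved by less than the SD over the libraries under TMM factors, DESeq2 size factors and a total of names with at least 10 counts in both libraries. Such factors cancel in the arm shares and in the ratio of miR-205-5p to miR-203-3p, so these settings cannot test them. Summing by hairpin moved the ratio by less than its SD. Summing by seed could not move it, since no other name with a sequence shared a seed. A total without miR-31-5p raised the level of miR-205-5p to 38461 CPM and that of miR-203-3p to 5144 CPM, which follows from the smaller total. Leaving out each library in turn gave 32346 to 33640 CPM for miR-205-5p, 4347 to 4480 for miR-203-3p, 102 to 189.6 for miR-203-5p and 10.1 to 19.6 for miR-205-3p, so the levels of the last pair depend on the library by over 1.5 times. It gave 7.22 to 7.74 for the ratio, 99.94% to 99.97% for the 5p share of miR-205 and 95.8% to 97.8% for the 3p share of miR-203. No member changed direction between the libraries under any setting, but none passed when at least 2-fold was also required. The number of names that differed between the libraries, 707, was then 441, and 254 of 358 with a mean of at least 100 counts, a setting at which miR-205-3p was not tested. The number of hairpins with the same arm called in both libraries, 150 of 164, was 227 of 309 at 20 counts and 97 of 99 at 1000 counts. Depth limits miR-205-3p most, with 38 and 81 counts. No paired analysis was possible because the 2 libraries belong to a single group.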

Other observations

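The seed regions of miR-205-3p and miR-203-3p are complementary to each other. Bases 2 to 7 of miR-203-3p are UGAAAU and their reverse complement, AUUUCA, forms bases 2 to 7 of miR-205-3p. Of the 1679 mature mouse miRNAs in the RefSeq table, 5 (0.298%) hold AUUUCA and 7 (0.417%) hold UGAAAU anywhere on the strand given. The match was noticed among the members and not tested, and miR-205-3p was recovered at 14.9 ± 6.78 CPM (SD, n = 2). miR-203b-5p, which neither table lists, holds the longer site CAUUUCA, since it is antisense to miR-203-3p.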
